A study of Mus musculus with 9 samples.

Results

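The genes described here are 37 genes of macrophages and other myeloid cells, taken by symbol from the 43154 genes listed for each of 9 mouse hearts. They fall into 8 genes shared by macrophages and other leukocytes, 12 genes of resident macrophages, 12 genes of monocyte-derived and activated macrophages, and 5 genes of antigen presentation. Of the 37, 34 had 1 FPKM or more in 2 or more hearts and entered the test, as did 13487 genes in all, while Timd4, Cx3cr1 and Fcgr1 did not. FPKM are mapped fragments corrected for transcript length and for the size of the library.

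All mice were C57BL/6. The transgenic vehicle group (3 hearts) expressed a calcineurin A transgene from the α-myosin heavy chain promoter, which is active in cardiomyocytes and not in macrophages. Calcineurin is a phosphatase switched on by calcium, and the transgene enlarges the heart. The JIB-04 group (2 hearts) carried the same transgene and received JIB-04, which inhibits histone demethylases of the Jumonji class, in doses of 50 mg/kg given 3 times each week, beginning at 4 weeks of age. The wild type group (4 hearts) had no transgene and received vehicle, and wild type hearts with JIB-04 were not analysed here. Both vehicle groups were dosed on the same weekly schedule as the JIB-04 group, from the same age. Collection was at day 125 for transgenic vehicle heart 1, JIB-04 heart 1 and wild type hearts 1 and 2, and at day 158 for the other hearts. Each heart is 1 sample, and p-values measure the spread between these hearts only.

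Heart macrophages come from different sources. Resident macrophages are seeded before birth, renew themselves in the tissue and clear dying cells, while others derive from blood monocytes that enter through the chemokine receptor CCR2. Both depend on signals through the CSF1 receptor, and both can present antigen on major histocompatibility complex (MHC) class II molecules. In whole heart RNA, fewer cells of a type and less RNA per cell cannot be told apart.

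Some hearts stood apart. Ppp3ca, which encodes the α form of calcineurin A, was at 1762, 1706 and 199 FPKM in transgenic vehicle hearts 1, 2 and 3 and, under JIB-04, at 1536 and 1434 FPKM, against 22.9 to 24.8 FPKM in wild type hearts. Transgenic vehicle heart 3 thus had the lowest transgene level of the 5 transgenic hearts, and it was the highest of its group in 21 of the 37 genes and the lowest in 11. Wild type heart 2 was the highest of its group in 24 of 37 genes. Mitochondrial genes held 10.004% of the summed FPKM in wild type heart 2 and 16.8% to 30.9% in the other hearts. Calls and signs of group medians that changed when both were left out, an alternative added after seeing the data, are given both ways in each comparison of treatment or genotype. Counts of calls under alternatives are given without the share of all genes in the same setting. They are no result about these genes. The 7 cardiomyocyte markers summed to 12640 to 15290 FPKM in transgenic vehicle, 13190 to 14670 in JIB-04 and 16080 to 19340 in wild type hearts, with none at 0 in any heart. In the limma test described below, Actn2 was called higher in transgenic vehicle than wild type hearts, and Tnni3, Myl2 and Myh6 were called lower. Of all genes tested, 20.3% were called higher and 15.7% lower.

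In wild type hearts 12 of the 37 genes averaged at least 10 FPKM, 20 averaged 1 to 10 FPKM and 5 averaged under 1 FPKM. The most abundant was Cd74, the invariant chain that escorts MHC class II molecules, at a mean of 106 FPKM. It was followed by Lyz2, lysozyme of macrophages, at 86.1 FPKM and H2-Aa, a class II α chain, at 48.6 FPKM. The order of these 3 is not firm, since Cd74 had an SD of 46.5 and H2-Aa of 23.1 FPKM (n = 4). C1qa, a chain of complement C1q made by macrophages, was at 47.2 ± 7.67 FPKM (SD, n = 4). The lowest was Gpnmb, a glycoprotein of lysosomes in lipid-laden and phagocytic macrophages, at 0.218 ± 0.0738 FPKM (SD, n = 4).

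**Figure D1:**
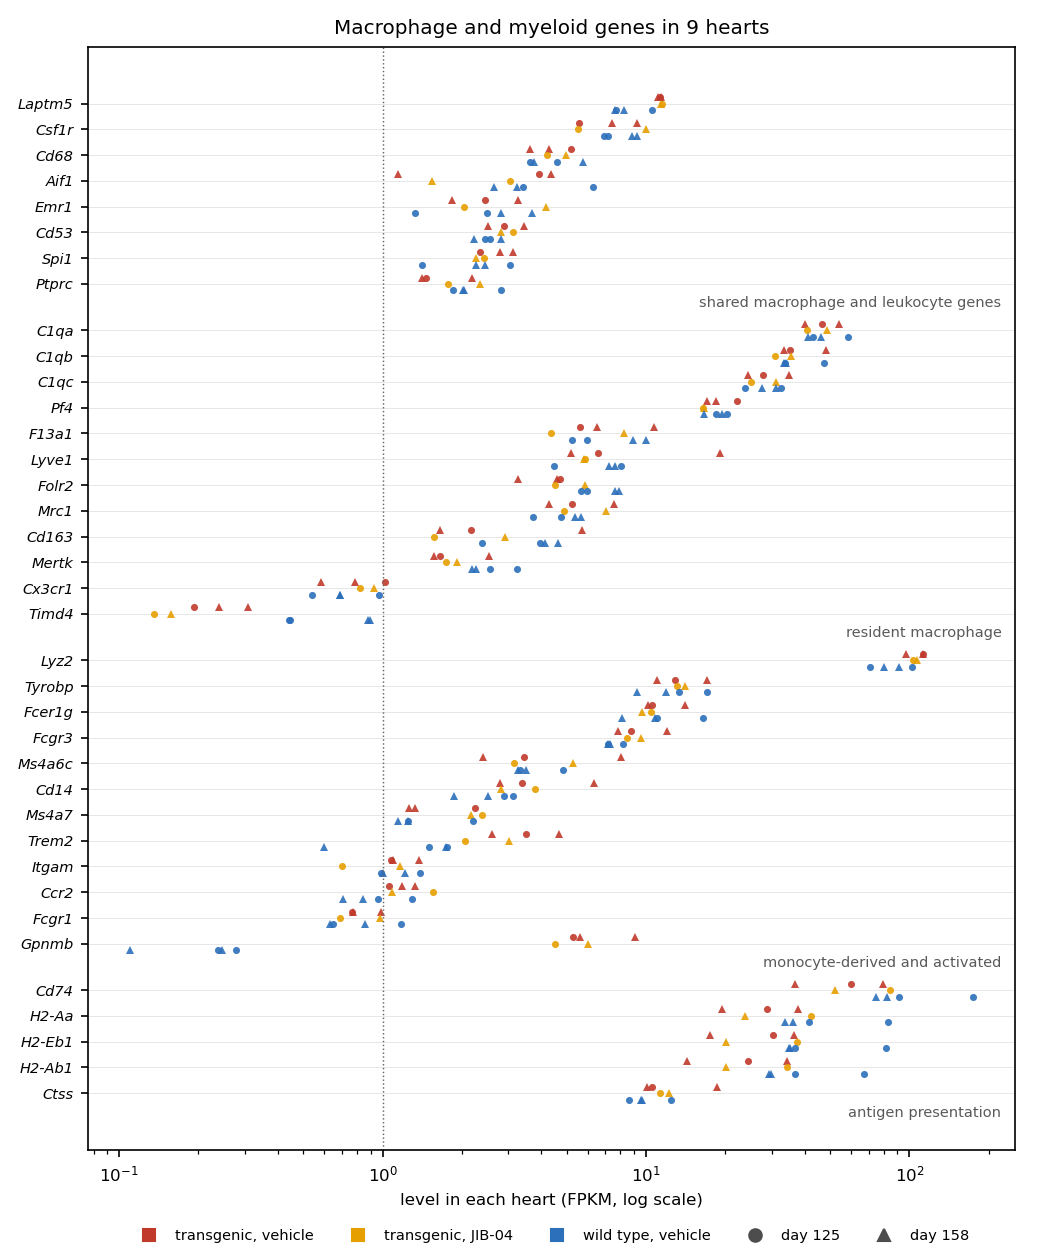
Level of each of the 37 genes in each of the 9 hearts (FPKM, log axis), with genes sorted by their wild type mean within the 4 groups of genes, each group named under its last gene. Red marks transgenic vehicle, orange transgenic JIB-04 and blue wild type vehicle hearts, with circles for day 125 and triangles for day 158. Gpnmb is the gene whose transgenic hearts (4.50 to 9.05 FPKM) lie farthest from the wild type hearts (0.110 to 0.278 FPKM).

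Promoter sequences of 6 of these genes are shown because 4 of them (Gpnmb, Trem2, Laptm5 and Folr2) are the genes that differed between transgenic vehicle and wild type hearts, and 2 (H2-Aa and H2-Eb1) are class II genes that kept the same order from heart to heart. The windows are RefSeq sequences of the GRCm38.p6 assembly, 250 bases before to 50 bases after the RefSeq start of the gene, on the strand of the gene. They cover chr6:49036268-49036567 (plus strand) for Gpnmb, chr17:48346151-48346450 (plus) for Trem2, chr4:130913066-130913365 (plus) for Laptm5 and chr7:101845282-101845581 (minus) for Folr2. Those of H2-Aa and H2-Eb1 cover chr17:34287774-34288073 (minus) and chr17:34305617-34305916 (plus). Capitals mark GAGGAA or its complement TTCCTC, the core of sites of the myeloid transcription factor PU.1, and GATTGG or its complement CCAATC, the core of the Y box of class II promoters. The 2 motifs share no position in these windows.
Gpnmb: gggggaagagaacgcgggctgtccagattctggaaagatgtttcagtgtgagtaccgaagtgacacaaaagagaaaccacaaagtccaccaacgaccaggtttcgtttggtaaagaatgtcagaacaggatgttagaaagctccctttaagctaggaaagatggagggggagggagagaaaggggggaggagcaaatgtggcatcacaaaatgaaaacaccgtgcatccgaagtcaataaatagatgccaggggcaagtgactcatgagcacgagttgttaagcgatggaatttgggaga
Trem2: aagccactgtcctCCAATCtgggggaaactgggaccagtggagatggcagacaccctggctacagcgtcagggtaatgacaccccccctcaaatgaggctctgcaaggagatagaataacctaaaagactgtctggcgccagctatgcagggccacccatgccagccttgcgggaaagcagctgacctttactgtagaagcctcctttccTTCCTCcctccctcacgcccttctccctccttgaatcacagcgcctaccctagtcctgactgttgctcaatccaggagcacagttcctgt
Laptm5: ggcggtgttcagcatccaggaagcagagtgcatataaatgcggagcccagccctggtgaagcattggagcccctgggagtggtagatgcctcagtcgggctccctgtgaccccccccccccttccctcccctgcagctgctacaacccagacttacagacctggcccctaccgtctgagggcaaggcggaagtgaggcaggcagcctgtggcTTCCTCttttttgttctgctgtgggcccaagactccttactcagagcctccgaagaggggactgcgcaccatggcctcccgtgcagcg
Folr2: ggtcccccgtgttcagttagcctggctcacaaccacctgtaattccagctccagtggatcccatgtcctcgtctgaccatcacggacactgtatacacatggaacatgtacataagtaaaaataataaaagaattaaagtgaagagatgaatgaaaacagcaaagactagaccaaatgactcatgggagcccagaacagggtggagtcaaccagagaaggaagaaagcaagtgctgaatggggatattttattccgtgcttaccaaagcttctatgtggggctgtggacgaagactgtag
H2-Aa: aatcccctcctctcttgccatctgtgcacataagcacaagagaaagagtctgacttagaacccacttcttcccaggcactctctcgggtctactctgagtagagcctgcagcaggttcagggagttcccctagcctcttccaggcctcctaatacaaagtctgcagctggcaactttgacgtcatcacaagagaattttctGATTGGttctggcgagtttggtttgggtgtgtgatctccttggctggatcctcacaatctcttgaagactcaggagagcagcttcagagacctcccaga
H2-Eb1: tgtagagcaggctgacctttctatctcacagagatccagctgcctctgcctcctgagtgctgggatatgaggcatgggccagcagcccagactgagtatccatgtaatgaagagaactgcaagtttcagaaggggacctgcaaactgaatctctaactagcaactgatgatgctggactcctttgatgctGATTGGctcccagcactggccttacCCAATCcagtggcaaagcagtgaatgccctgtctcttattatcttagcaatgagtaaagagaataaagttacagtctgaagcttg

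TTCCTC ends 35 bases before the start in Trem2 and 33 bases before it in Laptm5. GATTGG ends 44 bases before the start in H2-Aa and 55 bases before it in H2-Eb1, which also has CCAATC 30 bases before the start, and Trem2 has CCAATC 232 bases before it. Neither set of letters is in the windows of Gpnmb and Folr2. A promoter entry matched 28 of the 37 genes. On either strand GAGGAA was in 16 of these 28 (57.1%), against 28.3% of 32851 promoters of the same length, and GATTGG in 6 of 28 (21.4%), against 16.1%. A match is a description of letters, not a site.

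The transgene comparison asks which of these genes differed under vehicle. Among 34 tested genes 4 passed. Gpnmb, Trem2, a lipid receptor of macrophages, and Laptm5, a lysosomal membrane protein of leukocytes, rose in transgenic vehicle hearts, and Folr2, a folate receptor of resident macrophages, fell. The test was limma on log2(FPKM + 1) with a term for day, and a call is a Benjamini-Hochberg adjusted p under 0.05 over all 13487 genes. Of all genes tested 36.0% passed, 20.3% higher and 15.7% lower, so 3 higher and 1 lower of 34 is below the share over all genes. The counts changed with the scaling. When all hearts were brought to 1 common FPKM sum, 6 of the 34 were higher and 0 lower, and the median of all genes moved to 0.23 from 0.05 on the log2 scale. Under that scaling Lyz2, Cd14 and Fcgr3 passed in addition and Folr2 did not.

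Gpnmb had 5.30, 5.64 and 9.05 FPKM in transgenic vehicle hearts 1, 2 and 3 and 4.50 and 6.03 FPKM in JIB-04 hearts 1 and 2, against 0.278, 0.238, 0.110 and 0.245 FPKM in wild type hearts 1 to 4. All 5 transgenic hearts lay above all 4 wild type hearts, and heart 3 was the highest. The log2 fold change of transgenic vehicle over wild type was 2.60 ± 0.17 (SE), 95% interval 2.21 to 2.99, with limma adjusted p = 3.2e-05. On this scale low levels are compressed, and with a pseudocount of 0.1 the change was larger, up to 4.40. Gpnmb (chromosome 6, positions 49036518 to 49058182 in GRCm38, plus strand, protein-coding) passed under all 22 alternative settings, with changes of 2.41 to 4.40. Gpnmb reached 1 FPKM in transgenic hearts only, so it met the filter through the groups in which it was high. Within each day it passed as well, at 2.33 (adjusted p = 0.011) at day 125 and 2.80 (adjusted p = 0.0024) at day 158. These values are from a fit with 1 mean for each group at each day, in which day 125 holds 1 transgenic vehicle heart.

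Trem2 had 3.49, 2.60 and 4.69 FPKM in transgenic vehicle hearts and 2.06 and 3.02 FPKM in JIB-04 hearts, against 1.504, 1.755, 0.599 and 1.74 FPKM in wild type hearts. The groups did not overlap, though JIB-04 heart 1 lay near the highest wild type heart. The log2 fold change of transgenic vehicle over wild type was 0.96 ± 0.24 (SE), with limma adjusted p = 0.017. The call was lost without transgenic vehicle heart 1 (adjusted p = 0.063), with no filter on low values (0.061) and in the day 158 hearts alone (0.12). Trem2 lies on chromosome 17, positions 48346401 to 48354147.

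Laptm5 had 11.3, 11.4 and 11.1 FPKM in transgenic vehicle hearts and 11.5 and 11.4 FPKM in JIB-04 hearts, against 7.71, 10.5, 7.65 and 8.29 FPKM in wild type hearts. The 5 transgenic hearts were close together, and wild type heart 2 lay just below them. This made a log2 fold change of 0.38 ± 0.11 (SE, limma adjusted p = 0.023). It was lost without transgenic vehicle heart 1 (0.064) or 2 (0.060), without wild type heart 3 (0.075) or 4 (0.059), with no filter (0.053) and in the day 158 hearts alone (0.084). Laptm5 lies on chromosome 4, positions 130913125 to 130936141.

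Folr2 had 4.71, 4.58 and 3.27 FPKM in transgenic vehicle hearts and 4.50 and 5.89 FPKM in JIB-04 hearts, against 5.66, 5.99, 7.63 and 7.87 FPKM in wild type hearts. Every transgenic vehicle heart lay below every wild type heart, and JIB-04 heart 2 lay within the wild type range. The log2 fold change of transgenic vehicle over wild type was -0.62 ± 0.15 (SE), with limma adjusted p = 0.013. It was -0.26 (adjusted p = 0.44) at day 125 and -0.84 (adjusted p = 0.021) at day 158 in the fit by day, and the difference between the days had an unadjusted p of 0.055 (adjusted p = 1.0). The call was lost with equal totals (adjusted p = 0.085) and in the day 158 hearts alone (0.051). Folr2 (chromosome 7, positions 101839990 to 101845331, minus strand) shares exon positions with the antisense gene Gm10602, and the library kit did not keep strand, so reads of the pair cannot be told apart.

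**Figure D2:**
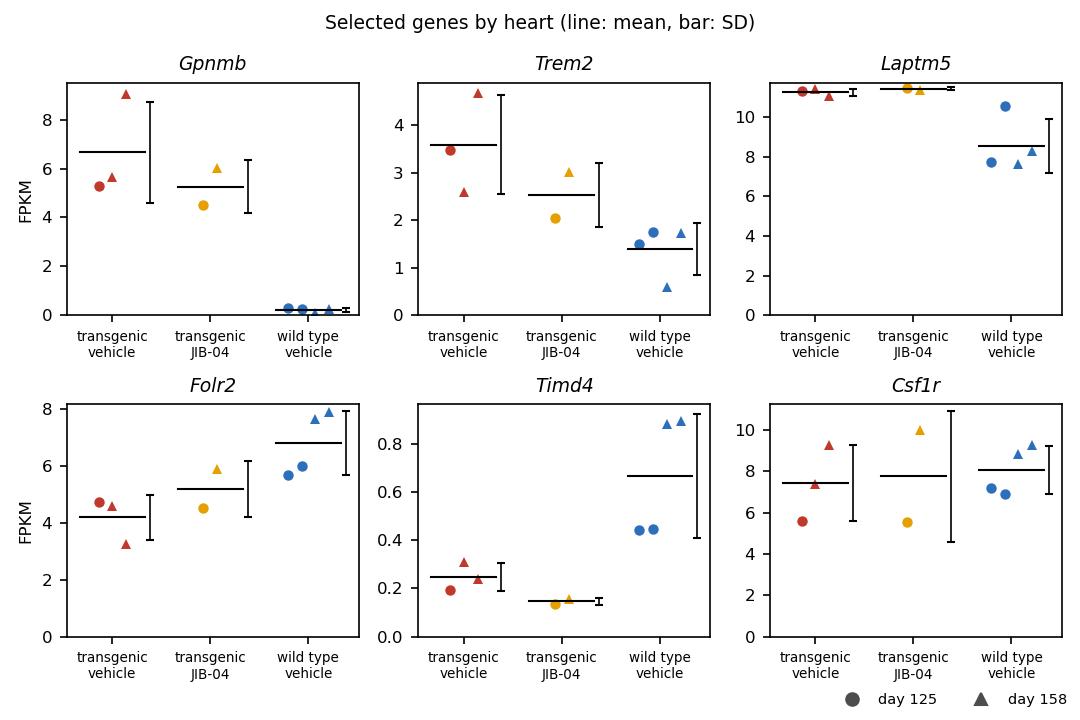
FPKM of 6 genes in each heart, by group, with a line at the group mean and a bar of 1 SD (3, 2 and 4 hearts), circles for day 125 and triangles for day 158. Gpnmb, Trem2 and Laptm5 are higher in every transgenic heart, Folr2 and Timd4 are lower in every transgenic vehicle heart, and Csf1r is higher at day 158 than at day 125 in all groups.

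The shared genes other than Laptm5 did not pass. Csf1r, the receptor that macrophages need for survival, had 5.59, 7.40 and 9.28 FPKM in transgenic vehicle hearts and 5.52 and 9.98 FPKM in JIB-04 hearts, against 7.19, 6.91, 8.84 and 9.27 FPKM in wild type hearts. The groups overlapped (log2 fold change -0.20 ± 0.11 (SE), limma adjusted p = 0.20). Cd68, a lysosomal protein of macrophages, had 5.21, 3.64 and 4.27 FPKM in transgenic vehicle, 4.22 and 4.96 FPKM in JIB-04 and 3.63, 4.60, 3.74 and 5.74 FPKM in wild type hearts. Its 95% interval is shown in the plot of group differences, and its log2 fold change was -0.01 ± 0.16 (SE). Emr1, which encodes the macrophage antigen F4/80 (Adgre1), had 2.44, 3.27 and 1.84 FPKM in transgenic vehicle, 2.04 and 4.19 FPKM in JIB-04 and 1.33, 2.49, 3.68 and 2.82 FPKM in wild type hearts. The groups overlapped, with JIB-04 heart 2 the highest and wild type heart 1 the lowest of the 9 hearts. Spi1, the gene of PU.1, averaged 2.75 ± 0.391 FPKM (SD, n = 3) in transgenic vehicle and 2.29 ± 0.672 FPKM (SD, n = 4) in wild type hearts (log2 fold change 0.19). Cd53, a leukocyte tetraspanin, differed by 0.17 and Ptprc, the leukocyte antigen CD45, by -0.25 on the log2 scale. Aif1, an actin-binding protein of macrophages, was uneven, at 1.15 FPKM in transgenic vehicle heart 3 and 6.30 FPKM in wild type heart 2. The median log2 fold change of the 8 genes was -0.04, against 0.05 for all genes, and 3 of 8 were above 0. Both the sign of this median and the split changed with scaling, to 0.13 and 5 of 8 with equal totals, and they changed to 0.16 and 6 of 8 when both apart hearts were left out.

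In transgenic vehicle against wild type hearts, resident macrophage genes showed no common direction. Of 10 tested, 0 were higher and 1 (Folr2) was lower, 4 lay above 0, and the median log2 fold change was -0.01. With equal totals 7 of 10 lay above 0 and the median was 0.21. Without both apart hearts the values moved the other way, with 3 of 10 above 0, a median of -0.16 and 4 called lower (Cd163, Lyve1, Mertk and Folr2) and 0 higher. The C1q genes, whose products start the classical complement pathway, were close between groups. C1qa had 46.5, 40.2 and 53.9 FPKM in transgenic vehicle, 40.8 and 48.7 FPKM in JIB-04 and 43.2, 58.3, 46.1 and 41.1 FPKM in wild type hearts. C1qb averaged 39.0 ± 8.15 FPKM (SD, n = 3) in transgenic vehicle, 33.2 ± 3.39 (SD, n = 2) in JIB-04 and 37.2 ± 6.88 (SD, n = 4) in wild type hearts. C1qc averaged 29.0 ± 5.32, 28.2 ± 4.40 and 28.8 ± 4.03 FPKM in these groups. The 95% intervals of transgenic vehicle against wild type ran from -0.34 to 0.34 for C1qa, -0.33 to 0.46 for C1qb and -0.36 to 0.33 for C1qc on the log2 scale. Pf4, a chemokine of platelets that macrophages also make, averaged 19.3 ± 2.62 FPKM (SD, n = 3) in transgenic vehicle and 18.6 ± 1.57 FPKM (SD, n = 4) in wild type hearts.

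Scavenger receptor genes followed single hearts. Lyve1, a hyaluronan receptor of vessel-associated macrophages and lymphatic endothelium, had 6.56, 5.17 and 19.2 FPKM in transgenic vehicle and 5.88 and 5.80 FPKM in JIB-04 hearts, against 8.07, 4.48, 7.63 and 7.25 FPKM in wild type hearts. Transgenic vehicle heart 3 was 3.27 times the mean of the other 2 hearts of its group. The log2 fold change was 0.30 ± 0.37 (SE, limma adjusted p = 0.57), but -0.18 without that heart (adjusted p = 0.54). Cd163, the haemoglobin scavenger receptor, had 2.16, 1.65 and 5.73 FPKM in transgenic vehicle and 1.56 and 2.90 FPKM in JIB-04 hearts, against 3.97, 2.39, 4.62 and 4.15 FPKM in wild type hearts. Its log2 fold change of -0.37 (adjusted p = 0.36) became -0.70 (adjusted p = 0.035) without transgenic vehicle heart 3. Mertk, the receptor kinase for dying cells, had 1.65, 1.57 and 2.54 FPKM in transgenic vehicle and 1.74 and 1.91 FPKM in JIB-04 hearts, against 3.23, 2.56, 2.19 and 2.27 FPKM in wild type hearts. Its -0.29 (adjusted p = 0.18) became -0.44 (adjusted p = 0.029) without the same heart. Both JIB-04 hearts lay below all wild type hearts for Mertk, with a log2 fold change of -0.33 and limma adjusted p = 0.19. Among the tested genes, Laptm5, Lyz2, Fcgr3, Trem2 and Gpnmb lay above all wild type hearts in both JIB-04 hearts. The share of all genes separated in this way was not computed, so this is no result about Mertk. Mrc1, the mannose receptor, averaged 5.71 ± 1.68 FPKM (SD, n = 3) in transgenic vehicle and 4.89 ± 0.859 FPKM (SD, n = 4) in wild type hearts.

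Timd4, the phosphatidylserine receptor TIM4 of self-renewing resident macrophages, was low in every heart. It had 0.193, 0.309 and 0.240 FPKM in transgenic vehicle hearts and 0.136 and 0.157 FPKM in JIB-04 hearts, against 0.443, 0.447, 0.883 and 0.895 FPKM in wild type hearts. The transgenic hearts lay below all wild type hearts, and the day 158 wild type hearts were the highest. It was below the filter and so not among the tested genes. With no filter the log2 fold change of transgenic vehicle over wild type was -0.44 ± 0.08 (SE, limma adjusted p = 0.014) and that of JIB-04 over wild type was -0.53 ± 0.09 (SE, limma adjusted p = 0.013). Cx3cr1, the fractalkine receptor, was at 0.581 to 1.02 FPKM in transgenic vehicle, 0.820 to 0.927 FPKM in JIB-04 and 0.540 to 0.971 FPKM in wild type hearts, also below the filter.

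Monocyte-derived and activated genes passed in 2 of 11 cases, both higher (Gpnmb and Trem2). All 11 log2 fold changes were above 0, at a median of 0.20, where 7503 of 13487 genes overall were above 0. This direction was not firm, with 10 of 11 above 0 under median of ratios and quantile normalization 7 of 11 without transgenic vehicle heart 3 and 10 of 11 without both apart hearts. Gpnmb reached 1 FPKM in transgenic hearts only, so it entered the test through the groups in which it was high. Lyz2 had 112, 97.1 and 113 FPKM in transgenic vehicle and 103 and 107 FPKM in JIB-04 hearts, against 70.8, 102, 91.3 and 80.2 FPKM in wild type hearts. Its log2 fold change was 0.33 ± 0.13 (SE, limma adjusted p = 0.081), and it passed without wild type heart 2 (0.41, adjusted p = 0.030) and with equal totals (0.55, adjusted p = 0.027). Lyz2 has a close paralog, Lyz1, and how reads were divided between such copies is not known. Tyrobp, the signalling adaptor that TREM2 uses, had 12.9, 10.98 and 17.0 FPKM in transgenic vehicle and 13.1 and 14.0 FPKM in JIB-04 hearts, against 13.3, 17.0, 11.9 and 9.23 FPKM in wild type hearts. Fcer1g, the common γ chain of Fc receptors, had 10.5, 10.2 and 14.0 FPKM in transgenic vehicle and 10.4 and 9.67 FPKM in JIB-04 hearts, against 10.99, 16.5, 8.09 and 10.8 FPKM in wild type hearts. The groups overlapped for both adaptors, whose log2 fold changes were 0.12 and 0.06.

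Ccr2, the chemokine receptor of entering monocytes, had 1.05, 1.33 and 1.18 FPKM in transgenic vehicle and 1.55 and 1.09 FPKM in JIB-04 hearts, against 0.958, 1.29, 0.839 and 0.709 FPKM in wild type hearts. It did not pass (log2 fold change 0.20 ± 0.13 (SE), limma adjusted p = 0.27), and wild type heart 2 lay within the transgenic range. Fcgr3, a low-affinity receptor of immunoglobulin G, had 8.77, 7.83 and 12.0 FPKM in transgenic vehicle and 8.47 and 9.53 FPKM in JIB-04 hearts, against 7.17, 8.16, 7.31 and 7.19 FPKM in wild type hearts (log2 fold change 0.29, adjusted p = 0.13 in limma). It passed without transgenic vehicle heart 2 (0.42, adjusted p = 0.037). Cd14, the co-receptor for lipopolysaccharide, was at 6.34 FPKM in transgenic vehicle heart 3 and at 1.87 to 3.78 FPKM in all others. Ms4a6c, a membrane protein of monocytes, was at 8.01 FPKM in that heart and at 2.40 to 5.26 FPKM in the others. Ms4a7, of the same family, averaged 1.61 ± 0.553 FPKM (SD, n = 3) in transgenic vehicle, 2.27 ± 0.143 (SD, n = 2) in JIB-04 and 1.46 ± 0.502 (SD, n = 4) in wild type hearts. Itgam, the integrin CD11b, averaged 1.19 ± 0.167 FPKM (SD, n = 3) in transgenic vehicle and 1.15 ± 0.190 FPKM (SD, n = 4) in wild type hearts. Fcgr1, the high-affinity receptor, was at 0.632 to 1.17 FPKM in all hearts, below the filter.

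Antigen presentation genes did not pass, and the class II genes varied widely between hearts. Cd74 had 59.8, 79.3 and 36.8 FPKM in transgenic vehicle and 84.2 and 52.1 FPKM in JIB-04 hearts, against 91.3, 175, 82.5 and 74.4 FPKM in wild type hearts. H2-Aa had 28.7, 37.6 and 19.4 FPKM in transgenic vehicle and 42.3 and 23.7 FPKM in JIB-04 hearts, against 41.4, 82.9, 36.3 and 33.9 FPKM in wild type hearts. H2-Ab1, a class II β chain, had 24.4, 34.2 and 14.3 FPKM in transgenic vehicle and 34.2 and 20.1 FPKM in JIB-04 hearts, against 36.7, 67.4, 29.9 and 29.3 FPKM in wild type hearts. For Cd74, H2-Aa, H2-Ab1 and H2-Eb1 transgenic vehicle heart 2 lay within the wild type range, and wild type heart 2 stood far above the others. H2-Eb1, another β chain, had 30.4, 36.4 and 17.6 FPKM in transgenic vehicle and 37.4 and 20.2 FPKM in JIB-04 hearts, against 36.6, 81.4, 35.2 and 34.8 FPKM in wild type hearts. The log2 fold changes of transgenic vehicle over wild type were -0.73 (adjusted p = 0.090) for Cd74, -0.61 (0.14) for H2-Aa, -0.63 (0.15) for H2-Ab1 and -0.59 (0.18) for H2-Eb1 in limma. Without transgenic vehicle heart 2 all 4 passed, at -1.07 (adjusted p = 0.011), -0.92 (0.025), -1.002 (0.010) and -0.89 (0.041), and under none of the other 21 alternatives did any of them pass. All 4 stayed below 0 under all 22 alternatives, down to a size of -0.13 for H2-Eb1 when both apart hearts were left out.

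The 4 class II genes kept a single order of hearts in every group, with heart 2 above heart 1 above heart 3 in transgenic vehicle, heart 1 above heart 2 with JIB-04, and hearts 2, 1, 3 and 4 from high to low in wild type. The C1q genes ran otherwise in the transgenic groups, with heart 3 above heart 1 above heart 2 in transgenic vehicle and heart 2 above heart 1 with JIB-04. As a ratio of summed FPKM, the 4 class II genes stood at 1.31, 1.92 and 0.643 times the 3 C1q genes in transgenic vehicle and at 2.05 and 1.005 times in JIB-04 hearts, against 2.05, 2.94, 1.66 and 1.68 times in wild type hearts. The ratio was lowest in transgenic vehicle heart 3 and highest in wild type heart 2, and the groups overlapped. Ctss, the protease that trims the invariant chain, followed C1q rather than class II in transgenic vehicle heart 3. It had 10.6, 10.1 and 18.5 FPKM in transgenic vehicle and 11.3 and 12.3 FPKM in JIB-04 hearts, against 8.64, 12.5, 9.56 and 9.67 FPKM in wild type hearts (log2 fold change 0.29, adjusted p = 0.31 in limma).

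**Figure D3:**
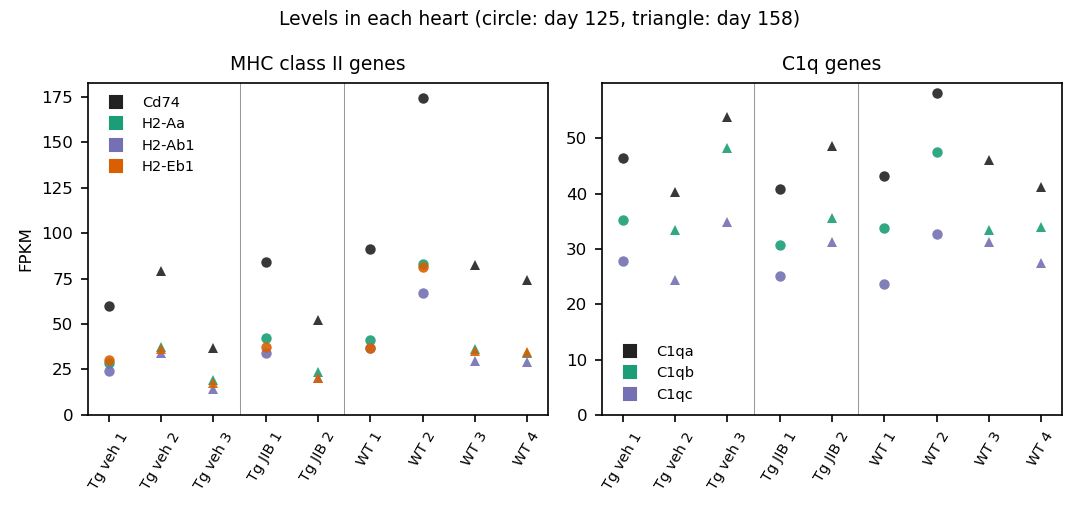
FPKM of the 4 MHC class II genes (left) and the 3 C1q genes (right) in each heart, with transgenic vehicle (Tg veh), transgenic JIB-04 (Tg JIB) and wild type (WT) hearts from left to right. Transgenic vehicle heart 3 is the lowest of its group in class II genes and the highest in C1q genes, and wild type heart 2 is the highest of its group in both.

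JIB-04 was compared with vehicle in transgenic hearts (2 against 3), the question the series is named for. None of the 34 tested genes passed in limma, 0 had an unadjusted p under 0.05, and adjusted p ranged from 0.99 to 1.0. Over all genes 0.00741% passed (1 gene), so a count of 0 is no result about these genes. Differences ran from -0.47 (Lyve1) to 0.30 (Ms4a7) on the log2 scale. All 34 intervals held 0, and 30 of 34 lay within -1 and 1, the exceptions being Aif1, Cd163, Lyve1 and Trem2. The interval was -0.71 to 0.22 for Gpnmb, -1.04 to 0.29 for Trem2, -0.28 to 0.30 for Laptm5 and -0.11 to 0.69 for Folr2. For Cd74 it was -0.67 to 0.97. Differences of this size can therefore not be told from 0 with 2 and 3 hearts, and the intervals do not show that vehicle and JIB-04 act alike. The lowest unadjusted p in limma was 0.08, for Pf4, at 16.5 and 16.7 FPKM in JIB-04 hearts against 22.2, 17.1 and 18.5 FPKM in transgenic vehicle hearts. The medians were 0.04 for shared, -0.10 for resident, -0.05 for monocyte-derived and activated and 0.10 for antigen presentation genes, against -0.01 for all genes. For all but the shared genes, the sign of the median changed when both apart hearts were left out. Without both apart hearts the medians were 0.05 for shared, 0.07 for resident (7 of 10 above 0, against 2 of 10 with all hearts), 0.07 for monocyte-derived and activated (7 of 11, against 3 of 11) and -0.055 for antigen presentation genes (1 of 5, against 3 of 5). In day 158 hearts alone the antigen presentation genes had a median of -0.15, with 0 of 5 above 0.

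JIB-04 hearts were also set against wild type hearts. Gpnmb (log2 fold change 2.35 ± 0.19 (SE), limma adjusted p = 0.00012) and Laptm5 (0.39 ± 0.12 (SE), adjusted p = 0.037) rose, 2 of 34, where 32.3% of all genes passed, 17.4% higher and 14.8% lower. Gpnmb met the filter through transgenic hearts only. Trem2 had a log2 fold change of 0.58 (adjusted p = 0.14) and Folr2 of -0.33 (adjusted p = 0.16). Laptm5 lost this call under 11 of 22 alternatives, among them leaving out either JIB-04 heart (adjusted p = 0.14 and 0.23), transgenic vehicle heart 1 (0.053) or wild type heart 1 (0.081), 3 (0.088) or 4 (0.074). Without transgenic vehicle heart 3 Folr2 passed as well (-0.33, adjusted p = 0.039), and without wild type heart 2 Ms4a7 did (0.53, adjusted p = 0.041). This comparison shares its wild type hearts with the one of transgenic vehicle hearts, and the transgenic vehicle hearts enter its fit through the common spread and the term for day. In a fit of the JIB-04 and wild type hearts alone, Gpnmb was the 1 gene higher, Cd163 (-0.57, limma adjusted p = 0.038) and Folr2 (-0.33, adjusted p = 0.018) were lower, and Laptm5 missed the threshold (adjusted p = 0.052). Without both apart hearts 5 genes were higher (Gpnmb, Laptm5, Lyz2, Ms4a7 and Ctss) and 2 were lower (Cd163 and Lyve1). With all hearts the median log2 fold change was -0.165 for resident (1 of 10 above 0) and 0.05 for shared genes (5 of 8). It was 0.25 for monocyte-derived and activated (9 of 11) and -0.53 for antigen presentation genes (1 of 5). The median of all genes was 0.04, with 7333 of 13487 above 0. Genes of a list share the same hearts and are not replicates.

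**Figure D4:**
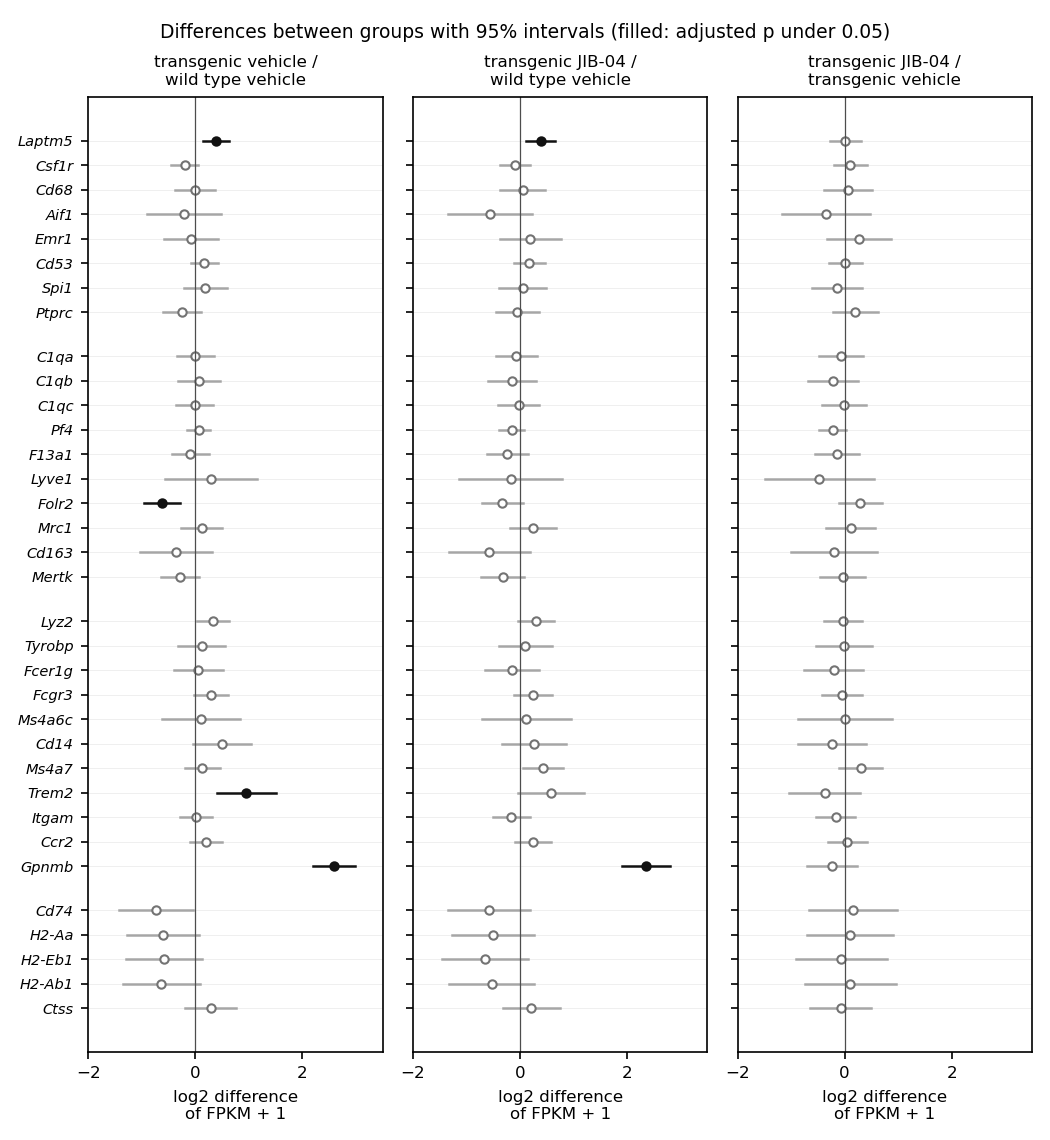
Differences of log2(FPKM + 1) with 95% intervals for the 34 tested genes, in transgenic vehicle over wild type (left), transgenic JIB-04 over wild type (middle) and transgenic JIB-04 over transgenic vehicle hearts (right). Filled points passed an adjusted p of 0.05, which are Laptm5, Folr2, Trem2 and Gpnmb on the left, Laptm5 and Gpnmb in the middle and none on the right.

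Day of collection was compared within the same fit. Age, length of dosing and the occasion of collection go with the day and cannot be told apart. Of 34 genes 0 passed for day 158 against day 125 (3 had an unadjusted p under 0.05), where 0.378% of all genes did. Csf1r and F13a1, a transglutaminase of resident macrophages, lay higher in all 5 day 158 hearts than in all 4 day 125 hearts, which held for 4.6% of all genes in either direction. F13a1 had 6.52 and 10.7 FPKM in transgenic vehicle, 8.29 FPKM in JIB-04 and 9.99 and 8.90 FPKM in wild type hearts at day 158, against 5.64, 4.35, 5.98 and 5.23 FPKM at day 125 in transgenic vehicle heart 1, JIB-04 heart 1 and wild type hearts 1 and 2. The log2 difference was 0.64 ± 0.13 (SE) for F13a1 and 0.47 ± 0.10 (SE) for Csf1r, each with limma adjusted p = 0.077, and both passed without transgenic vehicle heart 2 (0.023 and 0.049). F13a1 shares exon positions with the antisense gene Gm30489 and Csf1r with Hmgxb3. The change of the transgene difference with day passed in 0 of 34 genes in limma (0 at an unadjusted p under 0.05) and in 0.00741% of all genes. Across all transgenic against all wild type hearts, 35.6% of all genes tested did not overlap, and among the 34 these were Laptm5, Trem2 and Gpnmb.

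Genes around macrophages were examined as lists. Of all genes tested, 20.3% were called higher and 15.7% lower in transgenic vehicle against wild type hearts. Among 11 tested ligands and cues, 2 were higher in transgenic vehicle than wild type hearts. Cx3cl1, fractalkine, rose (log2 fold change 0.43, limma adjusted p = 0.028), at 4.36, 5.32 and 4.23 FPKM in transgenic vehicle and 5.97 and 5.51 FPKM in JIB-04 hearts, against 2.39, 3.13, 3.14 and 3.85 FPKM in wild type hearts. Ccl12, a ligand of CCR2, rose by 0.67 (adjusted p = 0.032), at 3.94, 3.93 and 3.32 FPKM in transgenic vehicle and 2.63 and 2.02 FPKM in JIB-04 hearts, against 1.65, 3.83, 1.44 and 1.85 FPKM in wild type hearts. Csf1, the main CSF1 receptor ligand, was at 16.5 to 17.1 FPKM in transgenic vehicle, 14.3 to 15.8 in JIB-04 and 11.5 to 17.5 FPKM in wild type hearts and did not pass. Of 10 class II regulators and processing genes 1 was higher and 1 lower. Ctsl, cathepsin L, rose by 1.17 (adjusted p = 0.0025), and Lgmn, the protease legumain, fell by 0.41 (adjusted p = 0.016). The class II transactivator gene Ciita stayed at 0.0770 to 0.114 FPKM in transgenic vehicle, 0.0578 to 0.142 in JIB-04 and 0.123 to 0.241 FPKM in wild type hearts, below the filter.

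Of 9 other resident macrophage genes 2 were higher and 1 lower. The counts in this paragraph are for transgenic vehicle against wild type hearts, where 20.3% of all genes tested were higher and 15.7% lower. Igf1, a growth factor made by several heart cells, rose by 0.61 (limma adjusted p = 0.020) and Vsig4, a complement receptor, by 0.51 (0.030), while Ltc4s, leukotriene C4 synthase, fell by 0.64 on the log2 scale (0.014). Vsig4 had 1.0, 0.834 and 1.48 FPKM in transgenic vehicle and 0.626 and 0.786 FPKM in JIB-04 hearts, against 0.443, 0.193, 0.521 and 0.636 FPKM in wild type hearts. It thus entered the test only through 2 transgenic vehicle hearts, the group in which it was high, whereas Timd4, low in all hearts and lower in transgenic ones, was kept out by the same filter. Of 7 other monocyte genes 3 were higher and 1 lower. Cd44, the hyaluronan receptor, rose by 1.68 (1.2e-05), Vcan, the proteoglycan versican, by 0.90 (0.026) and Fn1, fibronectin, by 0.57 (0.025), and all 3 are also made by fibroblasts. Nr4a1, a nuclear receptor of patrolling monocytes and an immediate early gene of other cells, fell (-1.26, adjusted p = 0.018), at 9.43, 12.2 and 8.27 FPKM in transgenic vehicle and 26.1 and 9.85 FPKM in JIB-04 hearts, against 55.9, 37.1, 13.9 and 20.6 FPKM in wild type hearts. Among 7 myeloid transcription factors 1 was lower, Mitf (-0.43, adjusted p = 0.0045), which cardiomyocytes also express. Lipid handling and lysosome genes had 5 of 12 higher and 2 lower. Spp1, 1 of the 5, had 1 FPKM or more in transgenic hearts only and met the filter through them. Lgals3, galectin-3, rose by 4.17 (1.6e-05), Ctsk, cathepsin K, rose by 1.21 (6.4e-05) and Fabp5, a fatty acid binding protein, fell by 0.88 (0.0001). Which heart cells made the RNA of these 12 genes was not tested. Of 6 complement genes and integrin partners 1 was higher and 1 lower. C4b, complement C4, rose by 1.17 (0.047) and Cfp, properdin, fell by 0.34 (0.034).

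**Figure D5:**
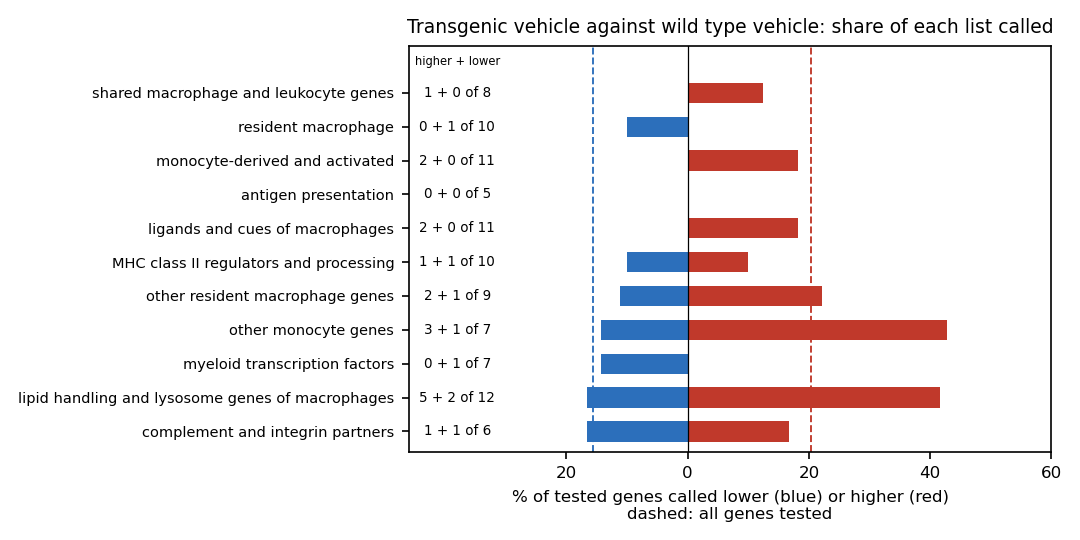
Share of the tested genes of each list that was called higher (red, to the right) or lower (blue, to the left) in transgenic vehicle against wild type hearts, with counts beside the bars and dashed lines at the shares over all genes tested (20.3% higher, 15.7% lower). The upper 4 lists are the 37 genes described here, and none of them exceeds the dashed line in either direction.

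In JIB-04 against vehicle hearts 0 genes of these 7 lists passed, where 0.00741% of all genes did, so this is no result about them. Of all genes tested, 17.4% were higher and 14.8% lower in JIB-04 than wild type hearts. In JIB-04 against wild type hearts Cx3cl1 rose by 0.72 (limma adjusted p = 0.0063), Ctsl by 0.70 (0.039) and Rfx5, a factor of class II promoters, by 0.55 (0.045). Igf1 rose by 0.70 (0.020) and Ltc4s fell by 0.57 (0.039). Cd44 (1.94), Vcan (1.37), Fn1 (0.76) and S100a4 (0.53) rose, and Lgals3, Ctsk, Spp1 (1 FPKM or more in transgenic hearts only) and Abca1 did as well, while Fabp5 and Lpl fell. C4b rose and Cfp fell, and 0 of 7 transcription factors passed.

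Markers of other cells moved between the groups too. Neutrophil markers (7 genes) summed to 3.97 to 35.0 FPKM in transgenic vehicle, 5.82 to 21.1 in JIB-04 and 2.37 to 6.03 FPKM in wild type hearts, with S100a8 and S100a9 highest in transgenic vehicle heart 3 (13.6 and 17.3 FPKM). None of the 3 tested passed, and Retnlg, Mpo and Camp were at 0 in some hearts. Lymphocyte markers (11 genes) summed to 1.78 to 3.39, 2.89 to 4.28 and 2.27 to 5.01 FPKM in these groups, with 0 of 2 tested called. Dendritic cell markers (8 genes) summed to 5.12 to 6.52, 5.31 to 6.48 and 6.12 to 8.54 FPKM, with 2 of 8 tested. Zbtb46, also made by endothelial cells, made up much of these sums and was lower in transgenic vehicle hearts, at 3.06 to 3.46 FPKM in transgenic vehicle, 3.01 to 3.04 in JIB-04 and 3.83 to 4.72 FPKM in wild type hearts. Others of the list, below the filter, lay the other way. Xcr1 averaged 0.284 and 0.347 FPKM in transgenic vehicle and JIB-04 hearts, against 0.111 FPKM in wild type hearts, Flt3 0.162 and 0.297 against 0.0567 FPKM, and Ccr7 0.351 and 0.351 against 0.102 FPKM. Mast cell markers (5 genes) summed to 0.663 to 3.23, 1.85 to 3.14 and 3.53 to 5.12 FPKM, with 2 of 2 tested lower in transgenic vehicle hearts and Cma1 and Mcpt4 at 0 in transgenic vehicle heart 1. Fibroblast markers (7 genes) summed to 485 to 654, 571 to 583 and 245 to 309 FPKM, with 5 of 7 higher and 0 lower in transgenic vehicle hearts. Endothelial markers (7 genes) summed to 195.5 to 268, 174 to 195 and 314 to 336 FPKM, with 5 of 7 lower and 0 higher. Of all 13487 genes tested, 20.3% were called higher and 15.7% lower in transgenic vehicle against wild type hearts. The part of these cells in the values of the myeloid genes was not tested.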

How the data were processed

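RNA of 9 hearts was extracted with Trizol and made into libraries of messenger RNA by a non-directional kit, as the labels' protocols state. The submitters' processing notes name STAR 2.7.1a, Picard, Cufflinks 2.2.1 and GATK 4.1.2 beside the GRCm38 build, with no roles. Their gene annotation is not given in the sources used here. The authors deposited log2 FPKM values, per the file headers. The constant in the logarithm is not stated, and 1 was used because the lowest value was 0. Read totals are unknown. From the steps between low values, depth was between 1.0 and 1.51 in units of wild type heart 1. Day follows the label of each heart, although the series text speaks of dosing to day 158 and 4 hearts are labelled 125.

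Genes were fitted with limma 3.58.1 in R 4.3.3 (mean per group, term for day, eBayes with trend, 5 residual and 3.07 prior degrees of freedom), with two-sided p adjusted over all 13487 genes that had 1 FPKM or more in 2 or more hearts. The fit was also run on simulated data with independent noise for each gene, no effect of day and no hearts that stood apart. Its outcome is not given and is not used as a check of the calls. The 37 genes, their groups and the other lists were chosen with earlier results of these data known. Genes called, the 3 most abundant of each group and defining genes are given by heart, others by range. From other lists up to 3 called genes with the smallest p are named, Vcan being added after its values were seen. Irf8 was not analysed here. Of the complement list, 1 gene is not reported here. Emr1 is Adgre1. Gene positions, types and exon overlaps are from GENCODE M21, matched for 37 of 37. Of the 37, 7 share exon positions with another gene (Cd74, Csf1r, Cx3cr1, F13a1, Folr2, Itgam and Ms4a6c). The file loci start 1 base lower than the annotation in 82.9% of 39237 genes. Alternatives were other pseudocounts (0.1 and 0.5), filters (none, 5 FPKM), scalings and variance models, no term for day, a replicate block, fewer groups, day 158 only, leaving out each heart, and, added after seeing the data, leaving out transgenic vehicle heart 3 and wild type heart 2 together.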

Additional observations from a re-analysis of the deposited data

Results flagged for a closer look

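In the wild type group of 4 hearts, 7 of 37 genes had a heart far from the other 3. Its gap to the nearest heart took more of the range than Dixon's 95% limit allows. Chance flags about 1 in 20 independent groups, but these genes share the same 4 hearts, so the flags are not independent. The share of all genes flagged in these hearts was not computed, so the count is no result about these genes. Wild type heart 2 was the high one in 6 of the 7. It had 47.5 FPKM of C1qb (next heart 34.0), 2.21 FPKM of Ms4a7 (next 1.25), 8.16 FPKM of Fcgr3 (next 7.31), 175 FPKM of Cd74 (next 91.3), 82.9 FPKM of H2-Aa (next 41.4) and 81.4 FPKM of H2-Eb1 (next 36.6). Wild type heart 1 was the high one for Ms4a6c, at 4.83 FPKM (next 3.51). The transgenic groups have 3 and 2 hearts and were not examined this way.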

How the results depend on the processing

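Gpnmb passed in both comparisons with wild type under all 22 alternatives. It had 1 FPKM or more in transgenic hearts only, so it met the filters through the groups in which it was high. For transgenic vehicle against wild type (4 genes called of 34), the count was 2 with the replicate number as a block, 1 in day 158 hearts alone and 7 with both apart hearts left out (Cd163, Lyve1 and Mertk lower in addition). It ran from 2 (without transgenic vehicle heart 1) to 8 (without transgenic vehicle heart 2) when each heart was left out. For JIB-04 against wild type (2 called) it was 1 with quantile normalization, 1 with the block, 1 in day 158 hearts and 7 without both apart hearts, and 1 to 3 with each heart left out. For day it was 0 to 2. The share of all genes called under each alternative is not set beside these counts. The replicate numbers do not pair the hearts: same-numbered hearts correlated at -0.19 to 0.43 in their deviations from group means. With the block Folr2 and Trem2 missed the threshold (adjusted p = 0.083 and 0.057) against wild type. JIB-04 against vehicle gave 0 calls under every alternative.

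The median of shared genes in transgenic vehicle against wild type (-0.04) was 0.13 with equal totals, 0.16 without both apart hearts and -0.19 to 0.10 with each heart left out. In JIB-04 against wild type (0.05) it was 0.17 with equal totals and 0.19 with the block. The median of resident genes (-0.01) was 0.21 with equal totals. That of monocyte-derived and activated genes was 0.15 to 0.40 with each heart left out (0.20 with all hearts), and 0.44 with the block in JIB-04 against wild type (0.25). Lyve1 turned to -0.36 without both apart hearts (adjusted p = 0.027), from 0.30. The cause of these changes was not tested, and fits that left out hearts also had fewer of them. Over single genes 2643 values kept their direction and call or moved less than the spread, 150 moved, 24 lost and 24 gained a call. Low genes such as Timd4 are limited by depth.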
